A study of Caenorhabditis elegans with 24 samples.

Results

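The small heat shock protein genes of C. elegans were followed across 6 genotypes. The 10 genes were chosen by name and comprise hsp-12.1, hsp-12.2, hsp-12.3, hsp-12.6, hsp-16.2, hsp-16.41, hsp-16.48, hsp-25, hsp-43 and sip-1. Each name was matched to its WormBase gene identifier, and all 10 were present among the 20549 genes that the deposited tables hold between them. RNA had been taken from whole nematodes on the first day of young adulthood, after growth at 20 °C on E. coli OP50. The labels name no heat or other stress. The first 3 genotypes carried an intact insulin/IGF-1 receptor gene. They were wild type (wt, strain N2) and the single mutants of bcl-11, called the bon125 mutant and the bon144 mutant after their alleles bcl-11(bon125) and bcl-11(bon144). The other 3 carried daf-2(e1370), a mutation that lowers the function of that receptor, either alone (daf-2 mutant) or with either allele (daf-2;bon125 and daf-2;bon144 double mutants). BCL-11 is a zinc finger transcription factor. Both of its alleles were made by gene editing and backcrossed, and both are described as hypomorphic: bon125 is a frameshift that adds foreign amino acids and leaves the C-terminal zinc fingers in place, and bon144 is an in-frame replacement within a conserved domain. Each genotype was 1 strain, and each had 4 libraries, numbered 1 to 4 by a batch number in the labels. The labels do not say that the libraries came from separate cultures, so the p-values measure only the spread between these libraries.

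Small heat shock proteins share a domain with the alpha-crystallins of the eye lens. They bind proteins that start to unfold, without using ATP, and hold them until ATP-driven chaperones of the Hsp70 class can refold them. In C. elegans the hsp-16 genes are the classical heat-inducible members. They are driven by the heat shock factor HSF-1 and are usually low in unstressed worms, whereas other members are transcribed during normal growth. In daf-2 mutants the transcription factor DAF-16 is active, and together with HSF-1 it is known to raise several small heat shock genes. The family is therefore among the candidates when the heat resistance of daf-2 worms is studied, and the study behind these data tested heat resistance in the same strains.

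Values are regularized log (rlog) values, a log2 scale on which the authors had normalised the libraries for their size. A difference of 1 is thus a 2-fold change, but rlog pulls the differences of weakly expressed genes towards 0. The 12 libraries with an intact daf-2 gene (wild-type background) and the 12 libraries with daf-2(e1370) (daf-2 background) had been normalised as 2 separate tables. Genotypes were tested against each other only within a table. The test of whether an allele's difference from its control was unequal in the 2 backgrounds was the only one to draw on both tables. The values are not per gene length, so levels are compared between samples and not between genes. Whole worms were used, and a lower level from fewer cells of a type cannot be told apart from less RNA per cell. All 10 genes passed the filter of a mean rlog of at least 3 in both tables. The hsp-16 genes were thus not silent in these libraries. In the wild-type background hsp-16.41 ran from 5.31 to 8.71 and hsp-16.48 from 7.69 to 10.64. In the daf-2 background they ran from 5.27 to 7.01 and from 7.47 to 9.48.

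The genes lie on 5 chromosomes of the WBcel235 assembly, and several sit side by side. On chromosome V, hsp-16.2 (WBGene00002016, 1804334 to 1804957, minus strand) and hsp-16.41 (WBGene00002018, 1805178 to 1805875, plus strand) are transcribed away from each other, with 220 bp between them. The gene hsp-16.48 (WBGene00002019, 9088131 to 9088617, plus strand) lies further along the same chromosome in a cluster with 3 more hsp-16 genes. It faces away from hsp-16.1, 348 bp to its left, and towards hsp-16.49, 662 bp to its right. On chromosome IV, hsp-12.3 (WBGene00002012, 9444791 to 9445507) and hsp-12.6 (WBGene00002013, 9446229 to 9447228) follow each other on the minus strand, 721 bp apart. The remaining genes stand alone. They are hsp-12.1 (WBGene00011906, chromosome I, 10581538 to 10582615, minus strand), hsp-12.2 (WBGene00002011, chromosome III, 8138077 to 8139631, plus strand), sip-1 (WBGene00004798, chromosome III, 10506106 to 10506801, minus strand), hsp-25 (WBGene00002023, chromosome X, 6034463 to 6039644, minus strand) and hsp-43 (WBGene00002024, chromosome X, 6233151 to 6235543, minus strand). In the annotation hsp-12.1 encodes a protein of 112 amino acids, hsp-12.2 and hsp-12.6 encode proteins of 110, and that of hsp-12.3 is 1 residue shorter. The 3 hsp-16 genes encode proteins of 143 to 145, sip-1 of 159, hsp-25 of 219 and hsp-43 of 393.

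**Figure D1:**
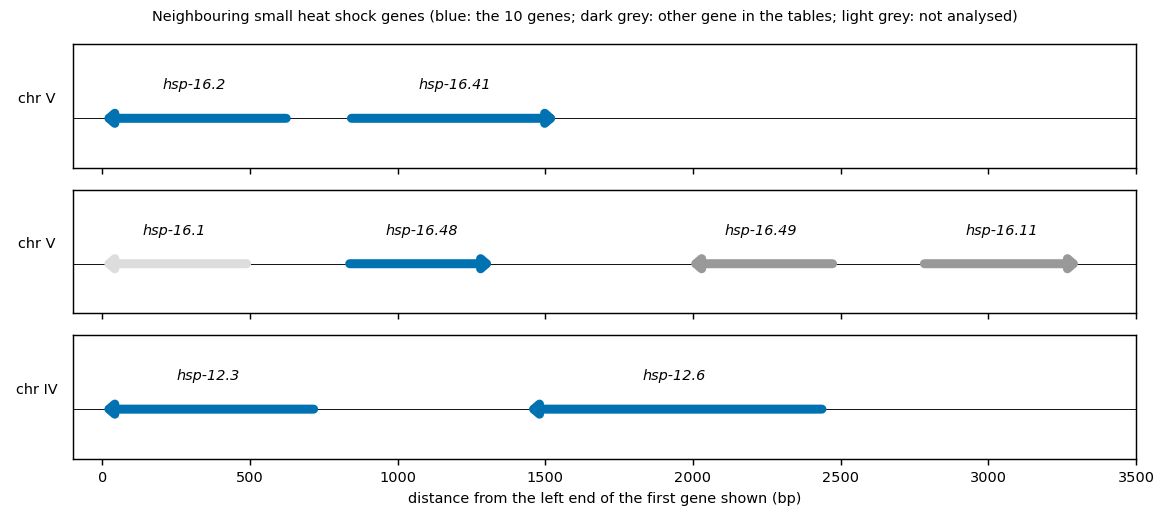
Neighbouring small heat shock genes drawn to scale, with the distance in base pairs from the left end of the first gene of each row on the x axis and arrows pointing in the direction of transcription. The hsp-16.2 and hsp-16.41 genes diverge from a gap of 220 bp, hsp-16.48 sits in a cluster of 4 hsp-16 genes, and hsp-12.3 and hsp-12.6 lie 721 bp apart on the same strand.

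The values of hsp-16.48 are not those of a single gene. Its values were identical, in all 24 libraries, to those of WBGene00002020 (chromosome V, 9089280 to 9089766, minus strand), which RefSeq names hsp-16.49 and which Ensembl also labels hsp-16.48. Kallisto, the tool that assigned the reads, splits reads between transcripts they match equally well, so the 2 copies carry 1 measurement and are counted once here. No other member had values identical to those of another gene. The libraries kept no strand information, so reads from overlapping or antisense transcripts would be counted with these genes.

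The hsp-16 genes had the widest spread of the family in the wild-type background, and they were high in the same libraries. For hsp-16.41 the rlog in replicates 1 to 4 was 8.25, 5.75, 7.73 and 6.47 in wt. It was 8.16, 5.97, 6.79 and 6.00 in the bon125 mutant. It was 8.71, 5.31, 5.72 and 5.76 in the bon144 mutant. Replicate 1 was thus the highest library of each genotype, and the genotypes overlapped throughout. The 12 libraries spanned 3.41 on the log2 scale, or 10.6-fold, and their SD of 1.18 was larger than that of 99.1% of the 13459 genes kept in this table.

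The neighbouring gene hsp-16.2, a widely used reporter of the heat shock response, took the same course. Its rlog in replicates 1 to 4 was 6.19, 4.52, 6.11 and 4.44 in wt, 5.92, 4.42, 5.16 and 4.32 in the bon125 mutant and 6.51, 4.40, 4.56 and 4.40 in the bon144 mutant. Replicate 1 was again the highest of each genotype, with replicate 3 close behind it in wt but at the level of replicates 2 and 4 in the bon144 mutant. At the other hsp-16 locus, hsp-16.48 measured 10.04, 8.30, 9.68 and 8.62 in wt. The bon125 libraries had 10.01, 8.23, 9.29 and 8.53, and the bon144 libraries 10.64, 7.69, 8.65 and 8.65. All 3 hsp-16 genes thus had the same 5 libraries on top, namely replicate 1 of every genotype and replicate 3 of wt and of the bon125 mutant.

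Replicate 1 exceeded the mean of replicates 2 to 4 by 2.21 for hsp-16.41 as the mean of the 3 genotypes (1.60 to 3.11), which is 4.62-fold. For hsp-16.48 the excess was 3.04-fold and for hsp-16.2 it was 2.84-fold. The gene hsp-43, which encodes the longest protein of the family, was also highest in replicate 1 of all 3 genotypes. Its rlog was 11.42, 11.00, 11.34 and 10.90 in wt, 11.46, 10.97, 10.98 and 10.79 in the bon125 mutant and 11.71, 10.82, 10.93 and 11.02 in the bon144 mutant, an excess of 0.56 (0.34 to 0.79). Replicate 1 was the highest library in all 3 genotypes for these 4 of the 10 genes, and for 3.44% of all genes kept in the table. The other 6 genes did not share the pattern: hsp-12.1, hsp-12.6 and hsp-25 were highest in replicate 1 in 1 genotype, hsp-12.3 in 2, and hsp-12.2 and sip-1 in none.

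The sum of squares over the 12 libraries put numbers on this. The replicate number accounted for 82.2% of the variation of hsp-16.2, 82.6% of that of hsp-16.41, 88.3% of that of hsp-16.48 and 79.8% of that of hsp-43, where the median of all genes was 30.5%. Genotype accounted for 4.18%, 5.88%, 1.44% and 2.66% in the same order, beside an all-gene median of 13.8%. The shares are parts of the same sum, so a large share for the replicate number leaves little for genotype. The low genotype shares therefore do not show that genotype mattered less for these genes than for others. The muscle protein gene hsp-25 also followed the replicate number (69.3%), but its lowest libraries were replicate 4, at 8.79 in wt and 8.85 in the bon125 mutant, and the 9 libraries of replicates 1 to 3 lay between 9.37 and 9.88.

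**Figure D2:**
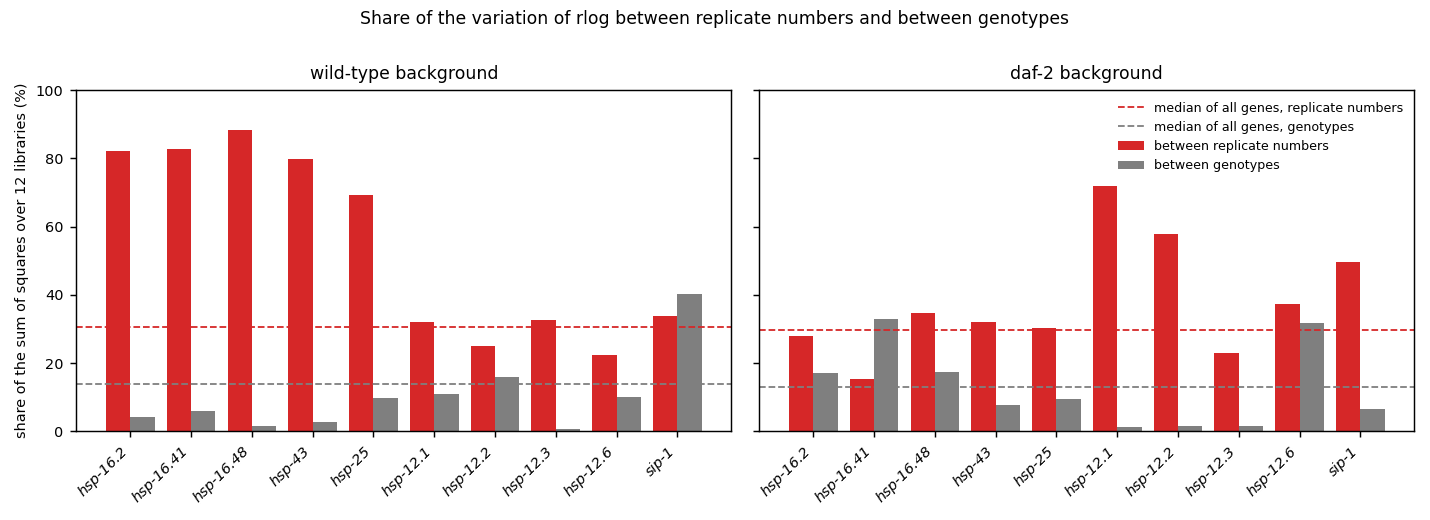
Share of the sum of squares of rlog over the 12 libraries of each background, in percent, that lies between replicate numbers (red) and between genotypes (grey) for each gene, with dashed lines for the medians of all genes. In the wild-type background the 3 hsp-16 genes and hsp-43 stand at 79.8% to 88.3% for the replicate number, and sip-1 has the highest share for genotype, 40.4%.

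Some other heat-inducible chaperone genes were high in the same libraries. Over the 12 libraries of the wild-type background, the genes outside the 10 whose rlog was most like that of hsp-16.41, the member with the largest SD, were hsp-16.11 (Pearson's r = 0.975), hsp-70 (0.959) and F44E5.4 (0.948). The first is a further hsp-16 gene and the other 2 encode heat-inducible Hsp70 proteins. Over a list of 12 cytosolic chaperone genes, r with hsp-16.41 ran from -0.74 to 0.96, with a median of -0.34. Among the members, r with hsp-16.41 was 0.969 for hsp-16.48, 0.963 for hsp-16.2 and 0.932 for hsp-43, and between -0.57 and 0.44 for the other 6. The libraries of a replicate number share a batch, so the coefficients are a description and no test was made.

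F44E5.4 measured 13.59, 9.98, 11.92 and 10.73 in replicates 1 to 4 of wt, 13.18, 9.57, 11.25 and 9.95 in the bon125 mutant and 13.39, 9.35, 10.88 and 8.96 in the bon144 mutant. Its excess in replicate 1 was 3.10, or 8.57-fold, and that of hsp-70 was 1.98, or 3.95-fold. The constitutive Hsp70 gene hsp-1 and the regulator gene hsf-1 were named here after their values were seen. Their mean differences between replicate 1 and the mean of the others were -0.29 and -0.21. The genotypes ran from -0.73 to 0.03 for hsp-1 and from -0.74 to 0.21 for hsf-1. These 2 genes had the lowest r with hsp-16.41 of their lists, at -0.74 for hsp-1 among the chaperones and -0.66 for hsf-1 among 9 regulators. They do not stand for their lists. Over the regulators r ran from -0.66 to 0.65, with a median of -0.25. The sperm marker list (8 major sperm protein genes) differed by library as well. Its mean rlog was 4.92, 4.98 and 4.93 in replicate 1 of wt, the bon125 mutant and the bon144 mutant, against 4.86 to 11.07 in the other 9 libraries, and all 8 genes passed the filter. The oocyte and eggshell list had a mean rlog of 12.66, 13.28 and 12.00 in the same 3 replicate 1 libraries, against 13.01 to 13.33 in the other 9, and r with hsp-16.41 ran from -0.83 to 0.14 over its 9 genes, with a median of -0.77. The yolk list stood at 19.67, 19.21 and 18.24, against 17.89 to 18.96, with r from 0.16 to 0.68 over its 6 genes. The part of these lists in the high hsp-16 levels was not tested.

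**Figure D3:**
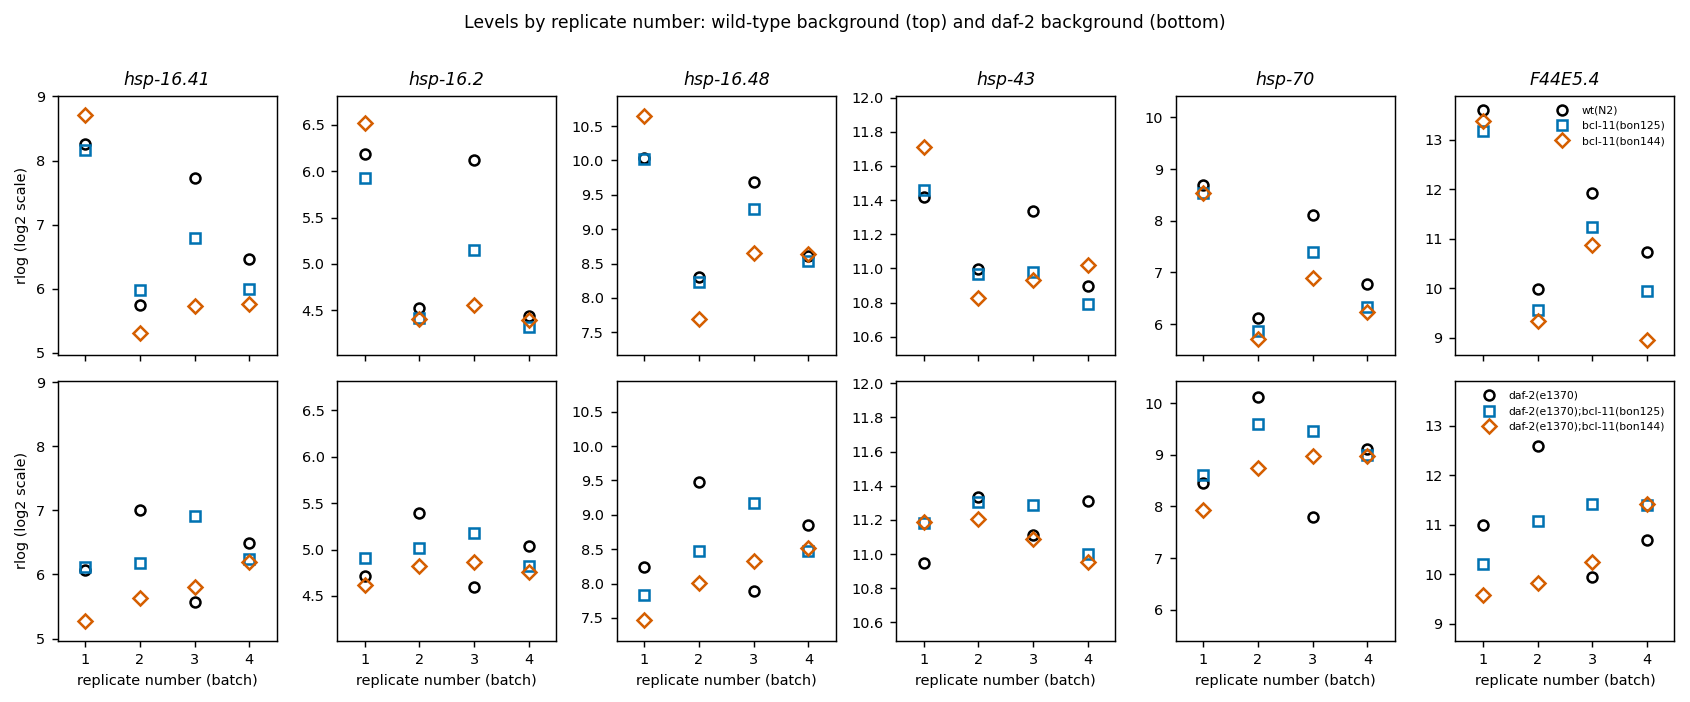
Rlog (y axis, log2 scale) by replicate number (x axis) for 3 hsp-16 genes, hsp-43 and the Hsp70 genes hsp-70 and F44E5.4, with 1 symbol per library, the wild-type background above and the daf-2 background below. In the upper row the 3 symbols of replicate 1 lie at the top, at 8.16 to 8.71 for hsp-16.41, and in the lower row they do not.

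In the daf-2 background the hsp-16 genes were high in other libraries and their range was narrower. The rlog of hsp-16.41 in replicates 1 to 4 was 6.07, 7.01, 5.57 and 6.48 in daf-2(e1370), 6.12, 6.17, 6.91 and 6.24 in the daf-2;bon125 double mutant and 5.27, 5.63, 5.80 and 6.19 in the daf-2;bon144 double mutant. The range was 1.74, or 3.35-fold, and the SD of 0.52 was still larger than that of 98.1% of the 14169 genes kept. The highest libraries were replicates 2 and 4 of daf-2(e1370) and replicate 3 of the daf-2;bon125 double mutant, and these were the top 3 for hsp-16.2 and hsp-16.48 too. The yolk list had a mean rlog of 18.83, 18.68 and 18.82 in these 3 libraries, against 17.91 to 18.90 in the other 9, with r from 0.55 to 0.78 with hsp-16.41 over its 6 genes, and its part was not tested.

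Replicate 1 was not the highest library of any daf-2 genotype for hsp-16.2, hsp-16.41, hsp-16.48 or hsp-43, and no member had it on top in all 3 genotypes, where the background was 2.15% of all genes. The replicate number accounted for 15.3% to 34.7% of the variation of the hsp-16 genes, around the all-gene median of 29.7%. The values of hsp-16.48 were 8.24, 9.48, 7.90 and 8.85 in daf-2(e1370), 7.83, 8.47, 9.17 and 8.48 in the daf-2;bon125 double mutant and 7.47, 8.00, 8.33 and 8.51 in the daf-2;bon144 double mutant. Among the members, r with hsp-16.48, which had the largest SD here, was 0.935 for hsp-16.41 and 0.865 for hsp-16.2. The genes most like it outside the 10 genes and hsp-16.49 were hsp-16.11 (r = 0.949), F46G10.2 (0.928) and cest-24 (0.901), the last named as a carboxylesterase. The highest shares for the replicate number belonged to hsp-12.1 (71.9%) and hsp-12.2 (57.8%), whose means over the 3 genotypes were highest in replicate 2, at 5.52 and 5.73.

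**Figure D4:**
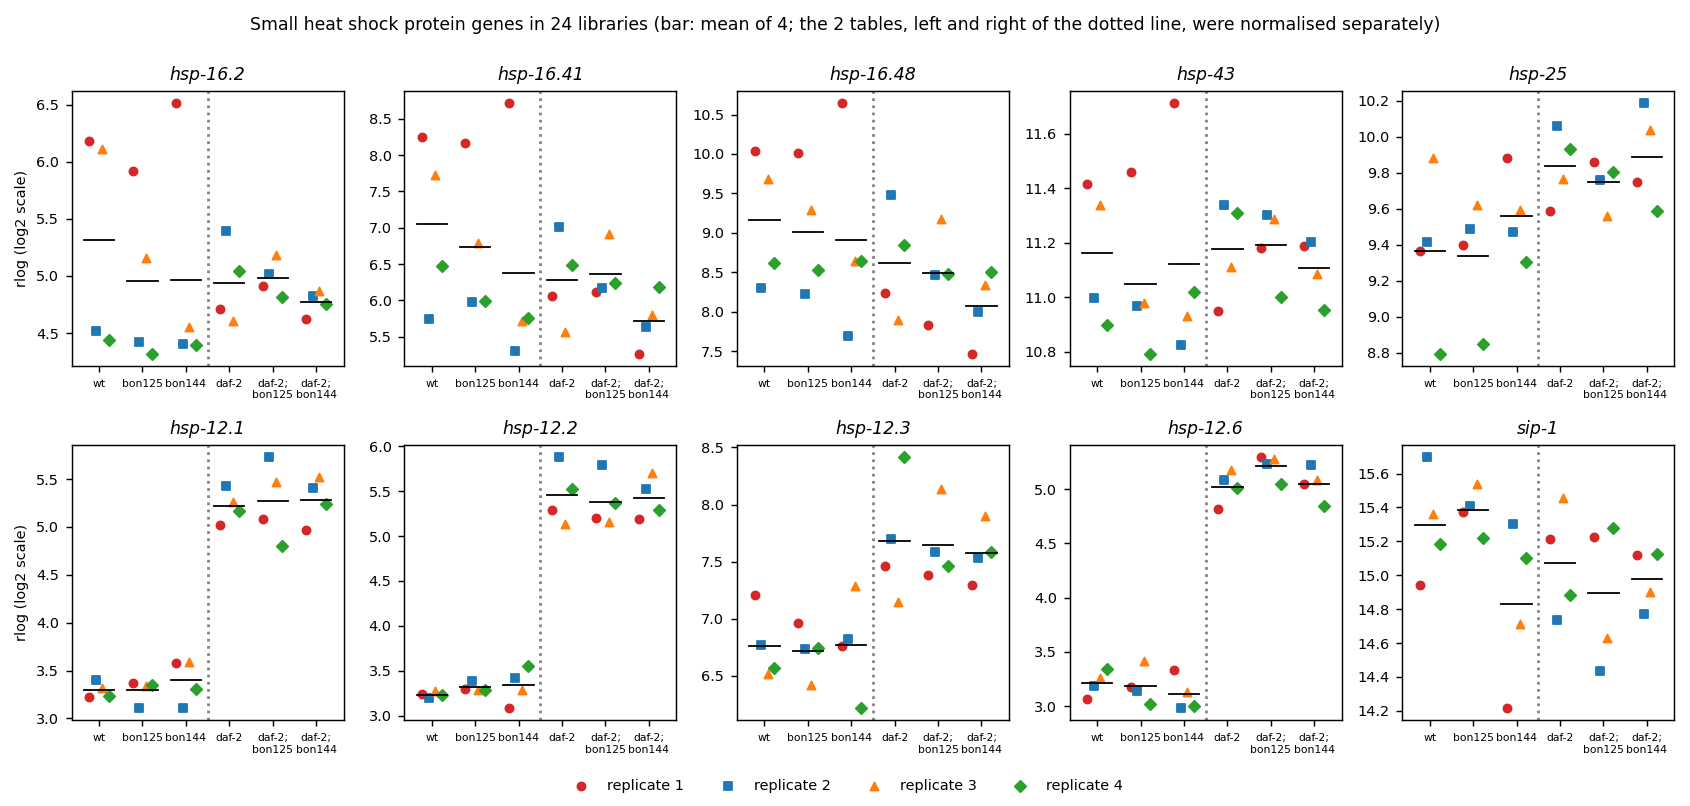
Rlog (y axis, log2 scale) of each of the 10 genes in every library, by genotype (x axis) and replicate number (colour and symbol), with the mean of 4 libraries as a bar and a dotted line between the separately normalised tables. The hsp-16 genes and hsp-43 have replicate 1 (red) on top in the 3 genotypes left of the line, and hsp-12.1, hsp-12.2 and hsp-12.6 lie near 3 left of it and near 5 right of it.

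To see whether reduced BCL-11 function altered the levels of the family at this temperature, each bcl-11 mutant was compared with its control by limma over all genes, and a gene was called at an adjusted p under 0.05 with a change above 1.5-fold. Both alleles were compared with the same 4 control libraries of their background. No small heat shock gene was called with either allele in either background. In the bon125 mutant against wt, 0 of the 10 genes were called (0% of 13459 genes) and 0 had an unadjusted p under 0.05 (1.55% of all genes). The study itself reported dysregulated genes in this comparison, where the fit on rlog values called no gene at all. The lack of calls therefore does not show that levels were unchanged. The differences ran from -0.36 (hsp-16.2) to 0.09 (sip-1), with a median of -0.04 beside -0.01 over all genes. The 95% interval lay within a 1.5-fold change for 6 of the 10 genes, namely the 4 hsp-12 genes, hsp-25 and hsp-43. Of these, hsp-12.1, hsp-12.2 and hsp-12.6 lay close to the filter, where rlog pulls differences towards 0. Their intervals therefore do not bound the change before that shrinkage. For hsp-16.41 it ran from -1.93 to 1.29, with a standard error of 0.75, which was 0.31 when same-numbered libraries were paired. The libraries of the 2 genotypes were separated for hsp-12.2 alone (1.95% of all genes), with 3.23, 3.19, 3.27 and 3.22 in wt and 3.30, 3.39, 3.28 and 3.29 in the bon125 mutant, a difference of 0.08 ± 0.09 (SE). In the other 5 comparisons below, no member was separated, beside 4.13% of all genes for the bon144 mutant against wt, 1.77% and 2.31% for the daf-2;bon125 and daf-2;bon144 double mutants against daf-2, and 2.94% and 3.05% between the alleles in the wild-type and daf-2 backgrounds.

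In the bon144 mutant against wt, again 0 of 10 genes were called (0.0669% of all genes) and 0 had an unadjusted p under 0.05 (7.1%). The smallest p belonged to sip-1, which encodes a small heat shock protein of oocytes and embryos. Its rlog was 14.94, 15.70, 15.36 and 15.19 in wt, 15.37, 15.41, 15.54 and 15.22 in the bon125 mutant and 14.22, 15.30, 14.71 and 15.10 in the bon144 mutant. The bon144 libraries were lower in 4 of 4 same-numbered pairs, but the groups overlapped. The difference from wt was -0.46 ± 0.23 (SE), with a 95% interval from -0.97 to 0.04 (limma, unadjusted p = 0.0675, adjusted p = 0.741). Blocking on replicate number gave an unadjusted p of 0.0388 and an adjusted p of 0.602.

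The level of sip-1 and the mean of the oocyte markers were lowest in the same library. In replicate 1 of the bon144 mutant, the mean rlog of 9 oocyte and eggshell genes was 12.00, against 12.66 to 13.33 in the other 11 libraries of the table, all 9 having passed the filter. The next lowest library for sip-1, replicate 3 of the bon144 mutant at 14.71, had a mean of 13.01 for these genes. Replicate 1 of the bon144 mutant also stood apart at -33.8 on the first principal component, as did replicates 2 and 3 of the same genotype at 29.5 and 62.7. The range of the 9 remaining libraries was -16.9 to 5.09. Without replicate 1 of the bon144 mutant the difference of sip-1 from wt was -0.26 (adjusted p = 0.601), and without replicates 2 and 3 it was -0.64 (adjusted p = 0.376). The part of the oocyte content in the level of sip-1 was not tested.

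The hsp-16 genes were lower on average in the bon144 mutant than in wt, without passing the test. For hsp-16.41 the difference was -0.67 ± 0.75 (SE), with a 95% interval from -2.28 to 0.93 (limma, adjusted p = 0.907). The difference between same-numbered libraries was 0.46 for replicate 1, but -0.44 for replicate 2 and -0.70 for replicate 4, and it was widest for replicate 3, with 7.73 in wt and 5.72 in the bon144 mutant. Leaving out replicate 1 of the bon144 mutant alone moved the difference of hsp-16.41 to -1.45 (adjusted p = 0.341), and leaving out replicate 1 of all 3 genotypes to -1.05 (adjusted p = 0.512). Leaving out replicates 2 and 3 of the bon144 mutant turned it to 0.19 (adjusted p = 0.944). With the replicate block the standard error of hsp-16.41 was 0.31, the difference was unchanged by construction, and the adjusted p was 0.623.

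**Figure D5:**
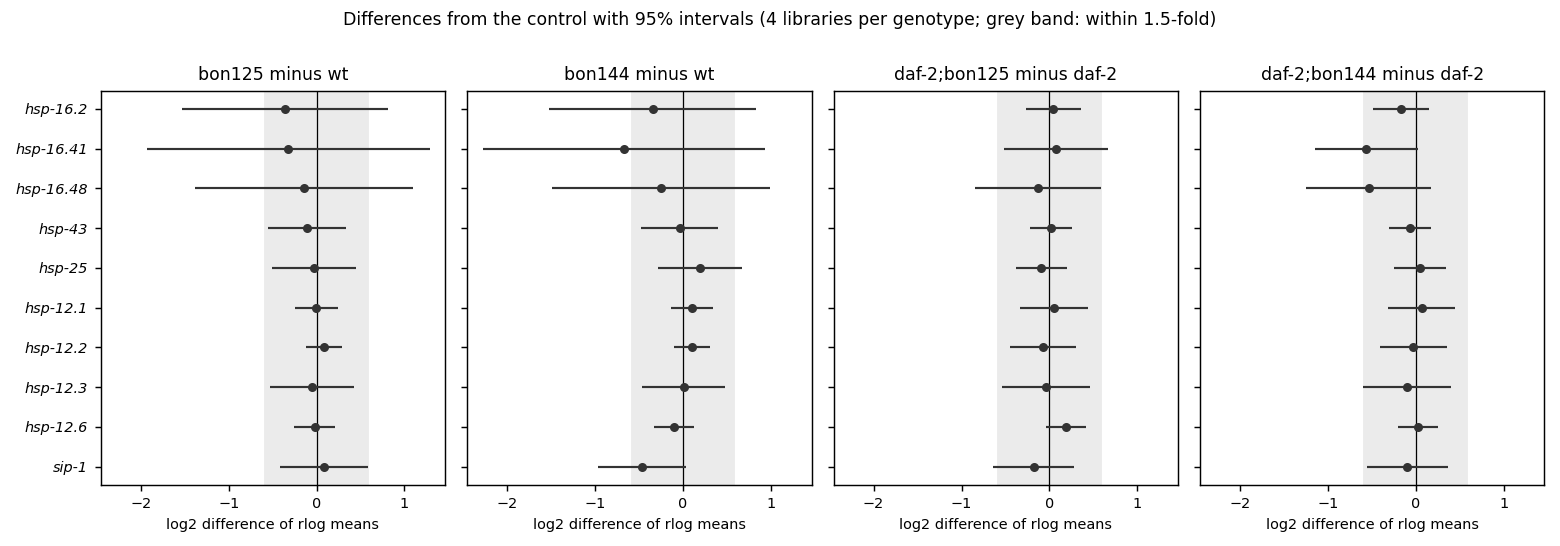
Log2 differences of the rlog means from the control (x axis) with 95% intervals for the 10 genes (y axis) in the 4 bcl-11 mutants, with the range within 1.5-fold in grey. All 40 intervals, from the fit without the replicate block, include 0. The widest are those of hsp-16.41 in the single mutants, from -1.93 to 1.29 with bon125 and from -2.28 to 0.93 with bon144.

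In the daf-2 background 0 of 10 genes were called in the daf-2;bon125 double mutant against daf-2(e1370) (0.0141% of 14169 genes), and 0 had an unadjusted p under 0.05 (4.11%). The smallest p was that of hsp-12.6, a target of DAF-16 that is needed for the full lifespan of daf-2 mutants. Its rlog was 4.82, 5.09, 5.18 and 5.01 in daf-2(e1370), 5.29, 5.24, 5.28 and 5.04 in the daf-2;bon125 double mutant and 5.05, 5.22, 5.09 and 4.85 in the daf-2;bon144 double mutant. The double mutant with bon125 was higher in 4 of 4 same-numbered pairs, by 0.19 ± 0.11 (SE), with a 95% interval from -0.04 to 0.42 (limma, adjusted p = 1.00). Over all genes, however, same-numbered libraries of these 2 genotypes barely behaved as pairs. Their deviations from the group means had a mean correlation of 0.03. The 95% interval lay within a 1.5-fold change for 7 of the 10 genes, and for hsp-16.41, hsp-16.48 and sip-1 it did not.

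In the daf-2;bon144 double mutant against daf-2(e1370), 0 of 10 genes were called (0.0565%) and 0 had an unadjusted p under 0.05 (3.47%). The differences of hsp-16.41 and hsp-16.48 were -0.56 ± 0.28 (SE) and -0.54 ± 0.33 (SE), with 95% intervals from -1.15 to 0.03 and from -1.25 to 0.18 (limma, adjusted p = 1.00 for each). They were -0.15 and -0.05 with library weights (adjusted p = 0.884 and 0.966), and -0.32 and -0.25 without replicate 2 of daf-2(e1370). Without replicate 3 of daf-2(e1370) they were wider, at -0.80 and -0.78. In the main fit the differences of the other 8 genes lay between -0.17 and 0.07.

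The alleles were also set against each other. Between the bon144 mutant and the bon125 mutant, 0 of 10 genes were called (0.0446%), and 1 had an unadjusted p under 0.05 (5.68%). This was sip-1, lower in the bon144 mutant by 0.55 on average and in 4 of 4 pairs (difference -0.55 ± 0.23, SE, unadjusted p = 0.0335, adjusted p = 0.870). Between the double mutants 0 of 10 genes were called (0.0494%) and again 1 had an unadjusted p under 0.05 (3.24%). It was hsp-16.41, at -0.64 ± 0.28 (SE) in the double mutant with bon144 relative to that with bon125, and lower in 4 of 4 pairs (unadjusted p = 0.0359, adjusted p = 0.999). The hsp-16.41 libraries of the double mutants overlapped, at 5.27 to 6.19 and 6.12 to 6.91. The effect of an allele in the daf-2 background minus its effect in the wild-type background was called for 0 of 10 genes with bon125 (0% of 13131 genes) and 0 with bon144 (0.0609%), and 0 had an unadjusted p under 0.05 with either (3.39% and 2.72%). For hsp-16.41 the 95% intervals of this difference ran from -1.38 to 2.17 and from -1.67 to 1.89 in the fit without the replicate block. The standard error was 0.86 for each allele in that fit and 0.46 with the block.

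Genes that work with the family were read from lists. The list of other small heat shock genes had 5 of 8 genes tested in the wild-type background and 7 of 8 in the daf-2 background, hsp-16.1 not being analysed here. In this list hsp-16.49 carries the values of hsp-16.48, and F08H9.3 and F08H9.4 were under the filter in the wild-type background, at 0.76 to 2.33, and at 3.29 to 3.68 in the daf-2 background. The cytosolic chaperones had 12 of 12, the chaperones of the endoplasmic reticulum and mitochondria 6 of 6, and the regulators, with hsf-1 and daf-16 among them, 9 of 9. In none of the 6 comparisons was a gene of these 4 lists called by limma, and between 0 and 1 gene of a list had an unadjusted p under 0.05. Over all genes, 0% to 0.0669% were called in these comparisons, and 1.55% to 7.1% had an unadjusted p under 0.05. No gene of the marker lists (yolk, oocyte and eggshell, sperm, and body wall muscle) was called either, with 0 to 3 genes of a list at an unadjusted p under 0.05. In the bon144 mutant against wt the median log2 difference was -0.78 for yolk, negative in 6 of 6 genes (48.3% of all genes). Of these 6 genes, 3 had an unadjusted p under 0.05 in limma (7.1% of all genes). For sperm the median was 0.64, positive in 8 of 8 with 0 at that level. The mean rlog of the sperm list was 4.93, 8.62, 11.07 and 4.86 in replicates 1 to 4 of the bon144 mutant. In wt it was 4.92, 6.74, 8.01 and 7.37. The higher median thus came from replicates 2 and 3 of the bon144 mutant, which also stood apart on the first principal component, and replicate 4 was lower than in wt. In the bon125 mutant against wt the median was -0.51 for yolk, negative in 6 of 6, and -0.80 for sperm, negative in 8 of 8. There 53.2% of all genes had a negative difference. In the bon144 mutant against wt the median log2 difference was -0.12 for the other small heat shock genes, 0.03 for the cytosolic chaperones, 0.01 for the organelle chaperones and -0.01 for the regulators, beside 0.01 over all genes. In the daf-2;bon144 double mutant against daf-2(e1370) it was -0.01, -0.07, -0.06 and 0.02, beside 0.00.

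Of all members, hsp-12.1, hsp-12.2 and hsp-12.6 differed most between the tables. They are among the shortest proteins of the family. With an intact daf-2 gene hsp-12.1 lay between 3.11 and 3.59 in the 12 libraries, and with daf-2(e1370) between 4.81 and 5.73. For hsp-12.2 the ranges were 3.09 to 3.56 and 5.13 to 5.88, and for hsp-12.6 they were 2.98 to 3.42 and 4.82 to 5.29. Every daf-2 library was higher than every library without daf-2(e1370) for these 3 genes. The share of all genes kept in both tables with every library higher was 26.4% for the daf-2 mutant beside wt, 30.6% for the pair with bon125 and 25% for the pair with bon144. The differences of the means, daf-2(e1370) minus wt, were 1.92 for hsp-12.1, 2.22 for hsp-12.2 and 1.81 for hsp-12.6, larger than those of 96.6% to 97.9% of genes. They were 1.89 to 2.09 between the genotypes with bon144 and 1.98 to 2.07 between the genotypes with bon125.

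These differences have no test, because the tables were normalised separately and daf-2(e1370) cannot be told apart from the table. The median over all genes was 0.03. Among the 1224 genes with an rlog of 3 to 4 in wt, however, the median was 0.46, and 57.9% had every daf-2 library above every wt library. Of these low genes 88.5%, 91.3% and 86.8% had a smaller difference than hsp-12.1, hsp-12.2 and hsp-12.6. The remaining gene of the group, hsp-12.3, stood at 7.21, 6.77, 6.51 and 6.57 in wt and at 7.46, 7.70, 7.15 and 8.41 in daf-2(e1370), a difference of 0.91 with overlapping libraries. In the pairs with bon125 and with bon144 its difference was 0.93 and 0.81, and every daf-2 library was the higher.

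Outside the hsp-12 group no member was separated between the tables in any of the 3 pairs of genotypes. The hsp-16 genes lay lower in daf-2(e1370) than in wt, by -0.38 (hsp-16.2), -0.77 (hsp-16.41) and -0.54 (hsp-16.48), less than the SD of the 4 wt libraries of each gene (0.97, 1.14 and 0.83). In the same order, the differences were 0.03, -0.37 and -0.53 in the pair with bon125. They were -0.20, -0.66 and -0.83 in the pair with bon144. Between daf-2(e1370) and wt the difference was 0.47 for hsp-25, which encodes a protein of muscle attachment structures, 0.01 for hsp-43 and -0.22 for sip-1. In hsp-25 the 4 daf-2(e1370) libraries measured 9.59, 10.06, 9.77 and 9.93, and the 4 wt libraries 9.37, 9.42, 9.88 and 8.79. The mean rlog of 5 body wall muscle genes was 9.79 to 10.22 in daf-2(e1370) and 9.10 to 10.49 in wt, all 5 having passed the filter.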

How the data were processed

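The authors prepared cDNA by the Smart-seq2 protocol, which keeps no strand, and assigned the reads to C. elegans transcripts of WBcel235 with kallisto. The deposited tables hold 1 rlog value per gene and library, a log2 scale, made by the authors from library-size-normalised counts, in 2 tables normalised separately (12 libraries each). The tool that made the rlog values is not given in the sources used here. Read counts were not used, so the depth per library is unknown and the precision is that of 4 libraries per genotype.

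Groups, replicate numbers and batch numbers came from the labels. Genes were matched by WormBase identifier to the Ensembl release 115 annotation, and names shared by several identifiers were resolved with RefSeq. All 20549 identifiers matched. The filter was a mean rlog of 3 or more over a table, passed by 13459 genes in the wild-type background, 14169 in the daf-2 background and 13131 in both. The 3 genotype means of each table were estimated by limma 3.58.1 (R 4.3.3) with eBayes and a trend, two-sided, with Benjamini-Hochberg adjustment over all genes tested. Genes were called at an adjusted p under 0.05 and a change above 1.5-fold, 0.58 on the log2 scale. The interactions were fitted over the 6 genotype means. The script was tested on simulated data. The batch number in the labels equals the replicate number, so same-numbered libraries of a table were taken as pairs. The mean correlation of their deviations from the group means was 0.03 to 0.24 over the 6 comparisons.

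All 10 members are named. Other small heat shock genes could be named, and in each table the 3 genes most like the member with the largest SD, by Pearson's r over 12 libraries. From the other gene lists a gene was named only where called, except hsp-1 and hsf-1. The members and the lists were chosen with earlier results of these data known. Alternatives were the replicate block, other filters, quantile normalisation, identical genes counted once, a fit without trend, library weights, fits of only the genotypes compared and leaving out libraries. No sequence is shown.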

Additional observations from a re-analysis of the deposited data

Results flagged for a closer look

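Among 60 groups of 4 libraries (10 genes in 6 genotypes), 5 had 1 library far from the other 3, measured as its gap to the nearest library divided by the range of the group. Chance alone would mark about 1 in 20 groups. Replicate 1 of bcl-11(bon144) was above the rest for hsp-16.2 (6.51 against 4.56 in the next library, ratio 0.925) and for hsp-16.41 (8.71 against 5.76, ratio 0.866). Replicate 3 of daf-2(e1370);bcl-11(bon125) was above the rest for hsp-16.41 (6.91 against 6.24, ratio 0.837). Replicate 2 of bcl-11(bon125) was below the rest for hsp-12.1 (3.11 against 3.34, ratio 0.894) and above the rest for hsp-12.2 (3.39 against 3.30, ratio 0.840).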

How the results depend on the processing

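The count of small heat shock genes called was 0 in all 6 comparisons and both interactions under each alternative run, 17 to 18 per comparison and 24 to 25 per interaction. The fits that each left out a library had 0 calls throughout. With the replicate block, which pairs the same-numbered libraries, the count was 0 in each comparison as well, and the block changed no call among the 10 genes. At an unadjusted p under 0.05 the alternatives gave 0 to 2 of the 10 genes, and their lowest adjusted p was 0.341, for hsp-16.41 in bcl-11(bon144) against wt without replicate 1 of bcl-11(bon144). Of 1510 differences recomputed for single genes, 1503 moved by less than 1 SD within genotypes, 7 moved by more and 180 had the opposite sign to the value reported. The 7 belonged to the interactions of hsp-12.1, hsp-12.2 and hsp-12.3, and they arose with library weights or with 1 daf-2 library left out. The SD within genotypes was 0.92 to 1.27 for the hsp-16 genes in the wild-type background, so this measure is a loose one for them. The moves of hsp-16.41 in bcl-11(bon144) against wt, from -0.67 to -1.45 and to 0.19, stayed under it. At a filter of mean rlog 5, only 7 of the 10 genes were tested in the wild-type background, 9 in the daf-2 background and 6 in the interactions. Leaving out replicates 2 and 3 of bcl-11(bon144), or replicate 1 of every genotype, was chosen after seeing the data. The standard errors of the hsp-16 genes in the wild-type background were 0.54 to 0.75 without the block and 0.23 to 0.31 with it. Rlog draws low genes together, so changes of hsp-12.1, hsp-12.2 and hsp-12.6, near 3 in the wild-type background, are understated.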
